A study of Mus musculus with 10 samples.

Results

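The comparison described here set RNA from EYFP-tagged hippocampal cells of mice that received foot shocks (aversive, 2 libraries) against RNA of mice kept in the home cage (mock, 3 libraries). These 5 of the 10 libraries of the series were chosen by their titles, and every gene in their count files was considered. In the aversive group, wild-type male mice, 5 weeks old by the labels, carried the viruses AAV9-TRE-ChR2-EYFP and AAV9-c-Fos-tTA, were taken off doxycycline (Dox) for 48 h and received 4 foot shocks, each of 2 s at 1.5 mA. The mock mice were males of the same age in the home cage. The study's methods call them an untagged control of 2 mice, whereas the labels describe all mice as labeled with the ChR2-EYFP transgene and as pooled by 8 for each condition, so how 3 mock libraries came from these animals was not given in the sources used here. Where mock cells carried no tag, the foot shock and the sorting by the tag differ together between the groups and cannot be told apart. All mice shared the dissection of the hippocampal regions, enzymatic dissociation at 37 °C, removal of debris and red blood cells, and a cell sorter. The study's results section calls the sorted material nuclei and its methods call it cells. Both groups were prepared with the same low-input poly(A) kit and read as single 40 bp reads on the same type of sequencer. The other 5 libraries, 2 appetitive (male mice with a female) and 3 neutral (the conditioning cage alone, another kit and sequencer), are used below as values beside the leading genes and for the estimate of the spread.

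As background, the c-Fos promoter is switched on for a short time in neurons that have just been strongly active. In this tagging system it drives the transactivator tTA, which binds the TRE promoter and turns on EYFP unless Dox blocks it, so a window without Dox leaves a lasting mark on cells active in that window. Foot shock is a standard aversive stimulus, and the ventral hippocampus is known for its part in fear and anxiety. The viral transgenes were not among the counted features, so the tag itself could not be checked in the counts.

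Total counts were 29194873, 20505550 and 49880042 in mock 1, 2 and 3, and 27159427 and 39172609 in aversive 1 and 3. Levels are given as CPM, the counts of a gene per 1000000 normalized counts of its library. A count of 3 equals 0.0415 to 0.156 CPM, depending on the library, which is the floor used here for a gene without counts. PCR copies cannot be told apart in these data, so such floors and the intervals below cover counting error only. No source says whether each library of a group had its own pool of animals, so the p-values measure the spread between libraries, which may be technical. Aversive 1 had 16849 genes with at least 1 count and aversive 3 had 24189, against 23245, 20596 and 30899 in mock. Thinned to 20505550 counts each, the libraries had 16145 and 22038 genes in aversive and 22265, 20596 and 27809 in mock, so aversive 1 was the lowest at equal depth too.

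The libraries of one group were not equally alike. Spearman's rho across the 19754 tested genes, where genes do not count as replicates, was between 0.91 and 0.922 for the pairs of mock libraries, 0.637 for the aversive pair and between 0.71 and 0.75 for pairs of a mock and an aversive library. Genes at 10 CPM or more in one library of a pair and under 1 CPM in the other numbered 2637 for the aversive pair and 54, 59 and 67 for the mock pairs. The 2 aversive libraries were thus less like each other than either was like any mock library. The myelin gene Mbp took 22.8%, 20.4% and 3.37% of all counts in mock 1, 2 and 3, and 23.7% and 1.09% in aversive 1 and 3, so mock 3 and aversive 3 stood apart from the other 3 in both groups. Mock 1 went against its label as male. The Y-linked genes Ddx3y, Eif2s3y, Kdm5d and Uty were at 0 to 0.398 CPM there, against 9.74 to 88.3 CPM in mock 2 and 3, and Xist, the RNA of the inactive X chromosome in females, was at 16.3 CPM, against 0 and 0.111 CPM. In aversive 1, Ddx3y and Eif2s3y were at 66.5 and 82.2 CPM, but Kdm5d and Uty were at 0.2 and 0.901 CPM and Xist at 1.80 CPM. In aversive 3, these 4 Y-linked genes were at 12.8, 71.7, 37.9 and 4.57 CPM and Xist at 0.481 CPM. Results are given without mock 1 where it altered a direction, and the library labelled mock 1 stays in the group otherwise.

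No gene passed the test between aversive and mock. In edgeR's quasi-likelihood test with Benjamini-Hochberg adjustment, 0 of 19754 genes (0%) had an adjusted p under 0.05 and 0 (0%) met the study's own threshold of an adjusted p under 1e-05 with a more than 4-fold difference, and the smallest adjusted p was 0.465. At an unadjusted p under 0.05, 200 genes (1.01%) were higher and 1768 (8.95%) were lower in aversive libraries. DESeq2 on the same 10 libraries, run as an alternative, called 96 genes higher (0.529% of the 18138 it gave an adjusted p) and 1371 lower (7.56%) at an adjusted p under 0.05, and 5 higher (0.0276%) and 253 lower (1.39%) at the study's threshold. With the 5 compared libraries alone DESeq2 called 479 higher (2.33%) and 2399 lower (11.7%), and edgeR called 0. The 2 tools thus differed in every count of calls, and the words "higher" and "lower" below describe values and not calls unless DESeq2 is named.

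Without a test, the positions of the libraries can be counted. Both aversive libraries lay above every mock library in 2244 genes (11.4%) and below every mock library in 4883 genes (24.7%). These shares are the background for each gene list below. Leaving out aversive 1 gave 6609 genes above and 7950 below, and leaving out aversive 3 gave 5255 and 9031. Leaving out mock 1 gave 2548 above and 5724 below. Fewer libraries can only keep or raise these counts, so the rises do not show how firm the counts are. The median log2 fold change over all tested genes was -0.13, and it was -0.002 with DESeq2's size factors and -0.28 with library size alone, so differences of about this size follow from the scaling. Over the same genes it was -0.68 without aversive 1 and -1.54 without aversive 3, which is the background for list medians given without one of these libraries.

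**Figure D1:**
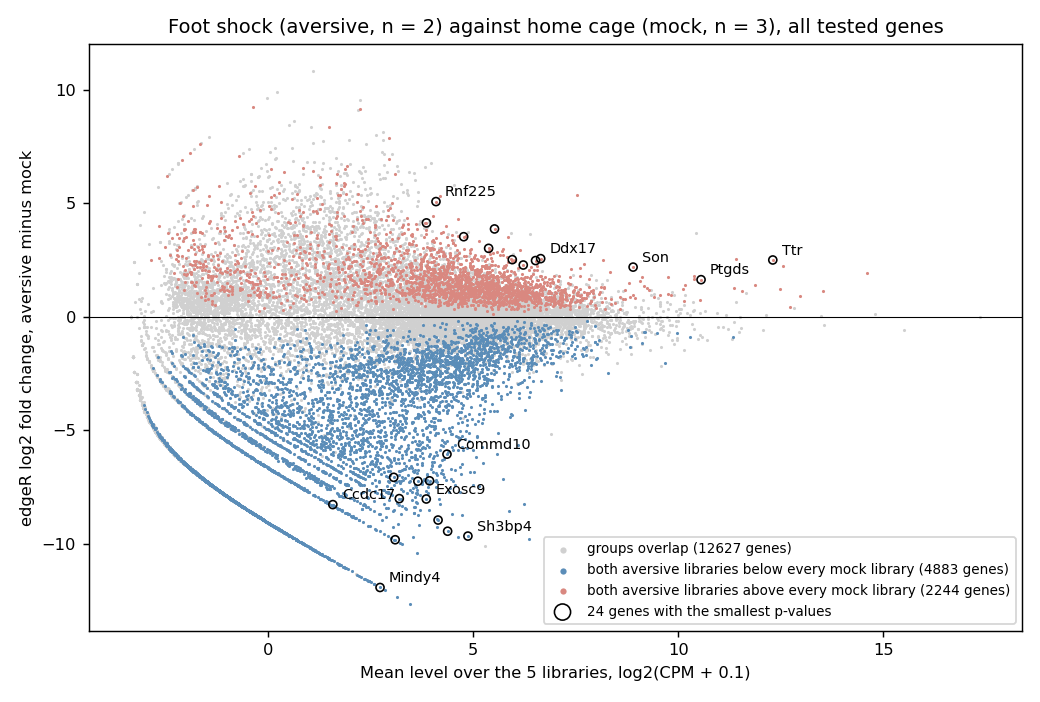
Each point is a tested gene, with its mean level over the 5 libraries as log2(CPM + 0.1) on the x axis and edgeR's log2 fold change, aversive minus mock, on the y axis. The 4883 genes with both aversive libraries below every mock library (blue) reach far lower on the y axis than the 2244 genes with both above (red) reach upward, and the arcs at the lower left are genes with 0 or a few counts in the aversive libraries. Fold changes there depend on the prior count.

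The 12 protein-coding genes with the smallest p-values among those lower in aversive libraries were all close to absent from both of them. Among them were Exosc9, Pramef8, Fbxo30, Mindy4, Gtpbp8, Commd10, Col18a1, Sh3bp4, Ccdc17, Lrrc41 and Fam219b. None of these named genes is a neuronal marker, and several have housekeeping roles in RNA decay, protein turnover and vesicle traffic. Their levels were between 3.19 and 72.7 CPM in every mock library and between 0 and 0.851 CPM in both aversive libraries, so the groups did not overlap for any of them.

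Exosc9 (chr3:36552606-36565727, plus strand, GRCm38), a subunit of the RNA exosome that trims and degrades RNA, was at 22.9, 31.1 and 18.2 CPM in mock 1, 2 and 3 and at 0.1 and 0.0802 CPM in aversive 1 and 3, from 2 and 4 counts. The ratio of the mock mean to the pooled aversive level was 280, with an exact Poisson 95% interval of 129 to 763 from the aversive counts. The log2 fold change was -8.03 ± 1.34 (SE; edgeR adjusted p = 0.465, unadjusted p = 8.65e-05), and DESeq2 gave an adjusted p of 2.21e-11. The groups were thus far apart, with a call in DESeq2 and none in edgeR.

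Pramef8, of the PRAME family, was at 8.96, 16.4 and 20.3 CPM in mock and 0.05 and 0.0601 CPM in aversive libraries. Fbxo30, an F-box protein of ubiquitin ligases, was at 30.1, 44.1 and 29.7 CPM against 0 and 0.0802 CPM. Both genes had between 0 and 4 counts in an aversive library of at least 27159427 counts. Mindy4, of a family of deubiquitinases, had 0 counts in both aversive libraries and 8.08, 13.4 and 11.4 CPM in mock, which is at least 73-fold lower when set against the higher floor of 3 counts of the aversive libraries. Sh3bp4, which takes part in clathrin-mediated uptake, was at 23, 72.7 and 50.8 CPM against 0 and 0.1 CPM. Col18a1, the collagen of vascular basement membranes from which endostatin is cut, was at 3.62, 13.4 and 25.5 CPM against 0 and 0.02 CPM. For Col18a1 a single aversive count lay behind a ratio of 992, with a Poisson 95% interval of 178 to 39169.

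Commd10, a COMM domain protein of endosomal sorting, had the highest remainder of the 12 genes, with 0.851 and 0.18 CPM in aversive libraries against 33.6, 41 and 27.1 CPM in mock. Gtpbp8, a GTP-binding protein, was at 0.05 and 0.14 CPM against 13.3, 10.7 and 17.4 CPM. Lrrc41, a substrate receptor of ubiquitin ligases, was at 0.15 and 0.18 CPM against 20.4, 24.4 and 31.3 CPM. In all 3, every mock library lay far above both aversive libraries. Fam219b was at 0 and 0.1 CPM against 19.4, 38.4 and 30.5 CPM. Ccdc17, a coiled-coil protein, was at 0 and 0.02 CPM against 3.19, 5.31 and 6.03 CPM. Exons of Exosc9, Gtpbp8, Ccdc17, Lrrc41 and Fam219b overlap a gene on the other strand (Ccna2, Nepro, C530005A16Rik, Rad54l and Gm26631), and counting ignored strand.

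In the other groups these genes parted in 2 ways. Exosc9, Pramef8, Gtpbp8 and Commd10 were at 28.2 to 160 CPM in both appetitive libraries. Fbxo30, Mindy4, Col18a1, Sh3bp4, Ccdc17, Lrrc41 and Fam219b were at 0 to 0.313 CPM there, as in the aversive libraries. All 12 were at 7.7 to 113 CPM in the 3 neutral libraries. No test was made of these differences between tagged groups.

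**Figure D2:**
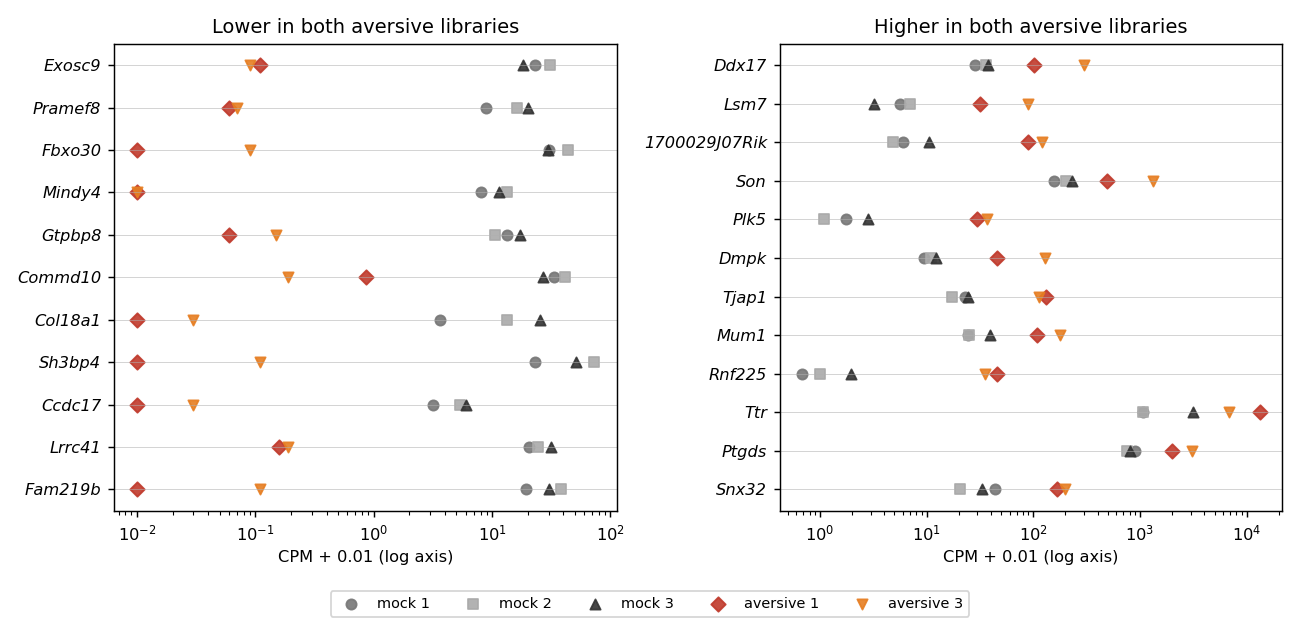
CPM (plus 0.01, log axis) in each of the 5 libraries for the named protein-coding genes among the 12 with the smallest p-values in each direction; each symbol is one library. On the left the aversive symbols sit at the floor of 0 to 0.851 CPM and the mock symbols at 3.19 to 72.7 CPM, and on the right the aversive symbols lie above the mock symbols in every row with smaller gaps.

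The near absence of genes from aversive libraries was not limited to these 12. Of 7096 genes at 10 CPM or more in every mock library, 950 (13.4%) were under 1 CPM in aversive 1 and 490 (6.91%) in aversive 3. Both aversive libraries were under 1 CPM in 154 of them (2.17%), which is 16.2% of the genes absent from aversive 1 and 31.4% of those absent from aversive 3, and 153 of the 154 were protein-coding. A mock library measured in the same way against the other 2 mock libraries was under 1 CPM in 4 of 7681, 1 of 7722 and 1 of 7394 genes. In the reverse direction, 5402 genes were at 10 CPM or more in both aversive libraries, and 18, 21 and 6 of these were under 1 CPM in mock 1, 2 and 3. The appetitive libraries lacked 2282 and 1430 of the 7096 genes and the neutral libraries between 149 and 383. Absence at this depth was therefore mostly a property of one aversive library at a time, with 1132 genes missing from exactly one of them. Without mock 1, 226 genes in place of 154 met the rule, which can only keep or gain genes when a library is left out. These thresholds were chosen after the data were seen.

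**Figure D3:**
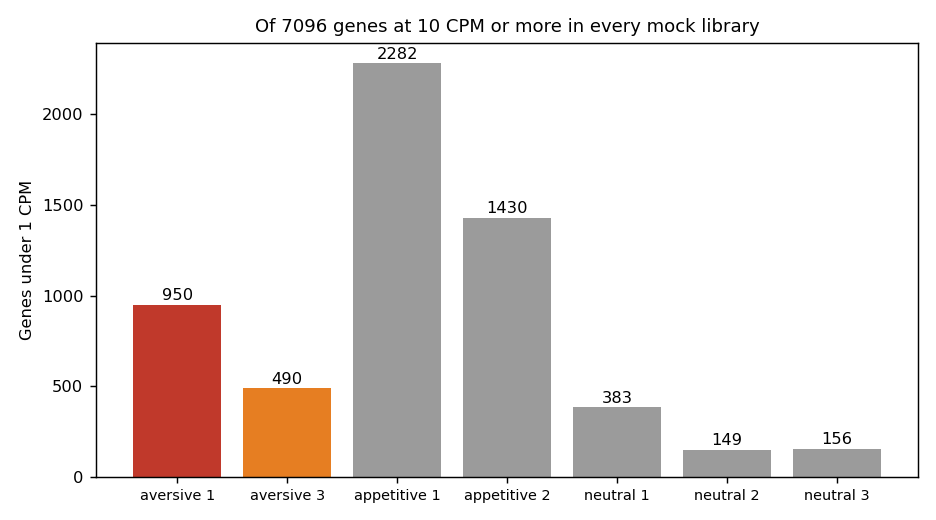
Number of genes under 1 CPM in each tagged library, out of the 7096 genes that were at 10 CPM or more in every mock library. Aversive 1 lacked 950 and aversive 3 lacked 490, between the neutral libraries (149 to 383) and the appetitive libraries (1430 and 2282).

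The 154 genes absent from both aversive libraries had a mean level of 11.1 to 127 CPM in mock, with a median of 21.4 CPM. The 3 with the highest mock levels, Apold1, Acvrl1 and Tie1, are all expressed in blood vessel endothelium. Of the 14 endothelial markers listed further below, however, 12 overlapped between the groups. Apold1 was at 53, 289 and 38.7 CPM in mock and at 0.2 and 0.621 CPM in aversive libraries. Acvrl1, a receptor of the TGF-beta family, was at 36.8, 161 and 93.8 CPM against 0.05 and 0.441 CPM. Tie1, a receptor tyrosine kinase of endothelial cells, was at 29.1, 132 and 102 CPM in mock and 0.3 and 0.922 CPM in aversive libraries. Il13ra1, a cytokine receptor, and Arntl, a core gene of the circadian clock, were among the other members, at means of 59.2 and 32 CPM in mock and at most 0.45 and 0.461 CPM in aversive libraries. Of the 154, 72 (46.8%) were also under 1 CPM in both appetitive libraries, 67 in exactly one, and 8 were at 10 CPM or more in both. In the 3 neutral libraries, 79 (51.3%) were at 10 CPM or more in every one. The genes of this paragraph were picked after their values were seen.

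The 12 protein-coding genes with the smallest p-values among those higher in aversive libraries were counted in each of the 5 compared libraries and differed by less. They were Ddx17, Lsm7, 1700029J07Rik, Son, Plk5, Dmpk, Tjap1, Mum1, Rnf225, Ttr, Ptgds and Snx32, with log2 fold changes of 1.63 to 5.08 and an adjusted p of 0.472 or 0.473 in edgeR. DESeq2 gave an adjusted p under 0.05 for 9 of them, and 0.112, 0.11 and 0.0686 for Ttr, Ptgds and Snx32.

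Ddx17, an RNA helicase that takes part in splicing, was at 28.6, 35.8 and 37.4 CPM in mock and 101 and 300 CPM in aversive libraries, a log2 fold change of 2.56 ± 0.66 (SE; edgeR adjusted p = 0.472). Son, a protein of nuclear speckles that is needed for splicing, was at 156, 204 and 233 CPM against 486 and 1313 CPM. Lsm7, a member of the ring that binds the end of U6 snRNA, was at 5.61, 6.93 and 3.18 CPM against 31.3 and 89.5 CPM. All 3 act on RNA, and in all 3 aversive 3 was the highest library. Exons of Ddx17 and Son overlap Kdelr3 and Donson on the other strand.

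Ttr, transthyretin, the carrier of thyroid hormone made in the choroid plexus, was at 1066, 1072 and 3156 CPM in mock and 13200 and 6793 CPM in aversive libraries, a log2 fold change of 2.50 ± 0.80, and was among 6 genes that edgeR called higher when no filter on low counts was used. Ptgds, prostaglandin D2 synthase of meninges, choroid plexus and oligodendrocytes, was at 890, 757 and 807 CPM against 1996 and 3084 CPM. Both products are made outside neurons. Dmpk, the kinase of myotonic dystrophy, was at 9.36, 10.9 and 12.3 CPM against 46 and 130 CPM. Plk5, of the polo-like kinases, was at 1.75, 1.09 and 2.83 CPM against 29.7 and 37.2 CPM. Tjap1, a protein of tight junctions and the Golgi, was at 22.8, 17.2 and 24.5 CPM against 133 and 113 CPM.

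Mum1, a chromatin protein with a PWWP domain, was at 24.2, 24.9 and 39.1 CPM against 108 and 178 CPM. Snx32, a sorting nexin, was at 43.7, 20.7 and 33.3 CPM against 166 and 197 CPM, and its exons overlap Cfl1 on the other strand. 1700029J07Rik, of no described role, was at 6.05, 4.84 and 10.5 CPM against 89 and 120 CPM. Rnf225, a RING finger protein, stood apart from the other 11, with 0.677, 0.99 and 1.95 CPM in mock, 46.1 and 35.6 CPM in aversive libraries and 0 CPM in all 5 appetitive and neutral libraries. Its exons overlap Gm26325 on the same strand. Ddx17, Lsm7, Son, Dmpk, Tjap1, Mum1, Ptgds and Snx32 lay above every mock library in both appetitive libraries too. Ddx17 was at 261 and 254 CPM there and Ptgds at 3150 and 8110 CPM. 1700029J07Rik and Plk5 were at 0 to 0.0782 CPM there, and Ttr at 848 and 2897 CPM. In the neutral libraries Ttr was at 20730 to 128856 CPM. These differences were not tested.

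The cells that the libraries held were then described by marker lists. In bulk samples, fewer cells of a type and less RNA per cell cannot be told apart. The pan-neuronal and choroid plexus lists had positive medians in every alternative run, the endothelial, pericyte and blood lists negative ones, and the astrocyte, microglia and oligodendrocyte lists changed sign in at least 1. No member of a marker list passed edgeR's test.

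The summed CPM of the 14 pan-neuronal genes was 442, 295 and 283 in mock and 774 and 634 in aversive libraries, so the groups did not overlap. Both aversive libraries lay above every mock library for 7 of the 14 genes (against 11.4% of all genes) and below for 2, and the median log2 fold change was 1.16. Snap25, of the complex that fuses vesicles with the membrane, was at 136, 117 and 44.2 CPM in mock and 422 and 123 CPM in aversive libraries. Nefl, a neurofilament subunit, was at 34.2, 15.8 and 15.1 against 99.2 and 50.6 CPM, and Uchl1, an abundant neuronal deubiquitinase, at 21.3, 20.3 and 18.8 against 41.2 and 56.2 CPM. Exons of Nefl overlap Nefm on the other strand. Map2, a microtubule protein of dendrites, was at 98.6, 37.7 and 98 against 9.96 and 113 CPM. DESeq2 called none of the 14. Between libraries alike in Mbp share, the sum differed by 1.07 on the log2 scale for aversive 1 over mock 1 and 2. For aversive 3 over mock 3 it differed by 1.16. Because the sums of the groups did not overlap, the direction of both differences was fixed beforehand, and they decide nothing about the part of myelin.

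Pyramidal neuron markers did not move together. Of 14 tested of 15, 2 lay above and 3 below, with a median of 0.24 that turned to -5.82 without aversive 3. The summed CPM of the list was 304, 140 and 175 in mock and 426 and 427 in aversive libraries. Nrgn, a calmodulin-binding protein of pyramidal cell spines, was at 49.1, 49.3 and 16.5 CPM in mock and 209 and 149 CPM in aversive libraries. Camk2a, the plasticity kinase of excitatory neurons, was at 68.6, 9.53 and 69.9 against 48.4 and 144 CPM, and Slc17a7, the vesicular glutamate transporter of cortical and hippocampal neurons, at 27.9, 4.95 and 26.9 against 16.8 and 25.7 CPM. Of these 3, the groups were apart for Nrgn only. Fibcd1 and Spink8, also on this list, had 0 counts in both aversive libraries and a low 0.207 to 3.54 CPM in mock libraries. Wfs1, another member, was at 0.1 CPM in aversive 1 and 27.8 CPM in aversive 3. These 3 genes were picked after their values were seen. Interneuron markers were low in every library. Gad1, which makes GABA, was at 7.96, 7.03 and 4.09 CPM in mock and 36.4 and 6.93 CPM in aversive libraries, 0 of the 11 tested markers lay above and 3 below, and the median of -0.18 was 0.24 with library size alone, 0.31 without mock 1 and -4.83 without aversive 3.

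Glial and barrier genes made up much more of every library. Astrocyte markers summed to 21000, 8256 and 7139 CPM in mock and 8820 and 10365 CPM in aversive libraries, and 1 of 18 lay below. Slc1a2, the main glutamate transporter of astrocytes, was at 1395, 525 and 577 CPM against 1167 and 2105 CPM. The astrocyte median of -0.42 was 0.28 without mock 1, which held the highest sum. Microglia markers summed to 2174, 3596 and 12993 CPM in mock and 10178 and 3662 CPM in aversive libraries, with 1 of 16 above and 2 below. Cx3cr1, the fractalkine receptor of microglia, was at 83.9, 75.9 and 1403 against 91.4 and 158 CPM. The microglia median of 0.11 was -0.35 with library size alone and -0.31, -0.18 and -0.49 without mock 1, mock 2 or aversive 1. Oligodendrocyte markers followed Mbp, at 264543, 217442 and 23232 CPM in mock and 322293 and 8548 CPM in aversive libraries, and Mobp, another gene of compact myelin, was at 87995, 62773 and 9420 CPM against 69847 and 2321 CPM. Mock 3 and aversive 3 were thus the low libraries for both genes. Of the 14 oligodendrocyte markers 3 lay above and 1 below, with a median of 0.22 that was -0.08 without aversive 1.

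Oligodendrocyte precursor genes differed from member to member. Of 10, 1 lay above and 5 below every mock library, with a median of -1.16 that was -8.84 without aversive 3, -0.28 without aversive 1 and 0.53 when at least 10 counts were required in every library, which removes the lowest members. Pdgfra, the growth factor receptor that defines these precursors, was at 18.7, 10.1 and 8.53 CPM in mock and 0.15 and 0.0401 CPM in aversive libraries, from 3 and 2 counts, with a DESeq2 adjusted p of 1.68e-06 and an edgeR unadjusted p of 0.0065. Olig1, a transcription factor of the whole lineage, was at 335, 213 and 325 against 365 and 525 CPM. Both patterns thus occurred within one lineage. Pdgfra was picked after its values were seen, and its exons overlap Gm42802 and Gm42803 on the other strand and Mir7025 on its own.

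Endothelial markers had a median of -1.42 with 0 of 14 above and 2 below, pericyte and smooth muscle markers a median of -0.66 with 0 of 9 above and 3 below, and blood cell markers a median of -1.34 with 0 of 14 above and 4 below. These shares below are to be read against 24.7% of all genes. The endothelial median was -2.21 without aversive 1 and -0.91 without aversive 3, the pericyte median was -4.26 without aversive 3 and -0.16 without aversive 1, and the blood median was -5.76 without aversive 1 and -0.68 without aversive 3. Over all tested genes the median was -0.68 without aversive 1 and -1.54 without aversive 3. Each of these lists thus changed side of that background between these runs. The sums of these lists overlapped between the groups, with 1586 to 9183 CPM in mock and 1584 and 2723 CPM in aversive libraries for endothelium. Slc2a1, the glucose transporter of the blood-brain barrier, was at 334, 1199 and 603 against 483 and 144 CPM, and Hbb-bs, a beta globin, at 218, 1405 and 257 against 535 and 120 CPM. Tie1 passed DESeq2 with an adjusted p of 0.00502. Choroid plexus markers summed to 2664, 2622 and 7327 CPM in mock and 20702 and 9664 CPM in aversive libraries. Of 10, 2 lay above and 1 below, and the median was 1.25, or 0.51 without aversive 1. Within the sets alike in Mbp share, the median difference of the members in log2(CPM + 0.1) was 2.75 for aversive 1 over mock 1 and 2. For aversive 3 over mock 3 it was -0.36. Most of the choroid plexus sum was Ttr and Enpp2. The defining water channel Aqp1 went the other way, at 1.59, 0.469 and 11.6 CPM in mock and 0.05 and 0.321 CPM in aversive libraries (DESeq2 adjusted p = 0.0445). Aqp1 was picked after its values were seen. Ependymal markers had a median of 1.35, with 2 of 10 above and 0 below, which was -0.64 without aversive 3. Fibroblast and meningeal markers had a median of 0.77, with 2 of 10 above and 1 below, and it turned to -0.48 when the replicate number was a block in the fit of the 5 libraries.

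**Figure D4:**
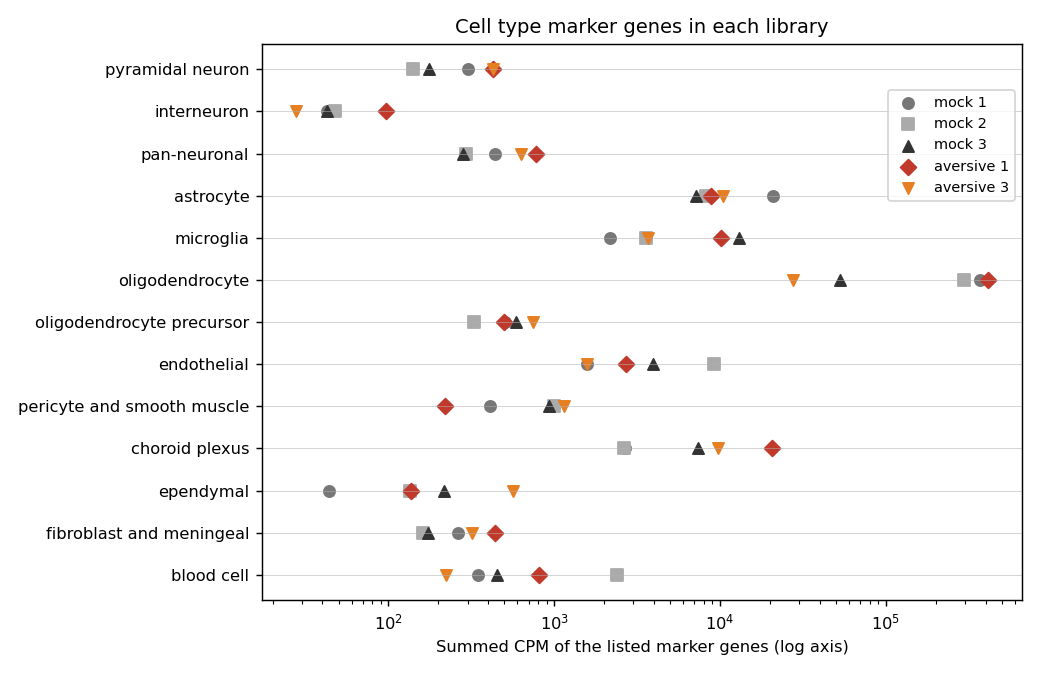
Summed CPM (log axis) of each list of cell type markers in each library; each symbol is one library. The pan-neuronal, choroid plexus and fibroblast sums of both aversive libraries lie above all mock libraries, as do the pyramidal sums, while the oligodendrocyte, microglia, endothelial and blood sums overlap.

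Synaptic vesicle genes had members above and none below every mock library. Of 21 synaptic vesicle genes 20 were tested, 5 lay above every mock library and 0 below, and the median log2 fold change was 1.25, between 0.55 and 1.43 in all alternatives. The sum was 744, 498 and 547 CPM in mock and 1435 and 1175 CPM in aversive libraries. Syn1, synapsin 1, which tethers vesicles and was picked after its values were seen, was at 17.6, 9.01 and 17.3 CPM in mock and 110 and 106 CPM in aversive libraries, a log2 fold change of 2.89 ± 1.07 (edgeR adjusted p = 0.473), and was the only member that DESeq2 called (adjusted p = 0.0271). Its exons overlap Araf on the other strand. Vamp2, the vesicle partner of Snap25, was at 165, 123 and 114 against 212 and 145 CPM, Rims1, of the release site, at 65.1, 30.8 and 28.8 against 60.2 and 257 CPM, and Cplx1, a complexin, at 46.5, 33.9 and 17.6 against 215 and 12.1 CPM. For the last 3 the groups overlapped.

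Receptors for glutamate showed no common direction. Of 18 ionotropic glutamate receptor genes 17 were tested, 1 lay above and 3 below, and the median was -0.01. Grin2b, an NMDA receptor subunit, was at 6.33, 1.2 and 8.46 CPM in mock and 17.3 and 108 CPM in aversive libraries, with a log2 fold change of 3.55 ± 1.27 (edgeR adjusted p = 0.473, DESeq2 adjusted p = 0.0146). Gria2, the AMPA receptor subunit that limits calcium entry, was at 130, 31.4 and 97.6 against 56.8 and 552 CPM, Gria1 at 45.6, 6.41 and 18 against 12.9 and 69.1 CPM, and Grin2c at 111, 23.6 and 43.9 against 57.9 and 140 CPM. Aversive 3 was the highest of the 5 libraries for these 4 receptors, and the median of the list was -3.70 without it, 0.80 without aversive 1 and 0.45 without mock 1.

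GABA-A receptor genes had 0 of 12 tested (of 16) above and 5 below every mock library, against 24.7% below among all genes. Their median of -1.13 was -3.15 without aversive 3 and -0.22 without mock 1. Gabrg1 was at 163, 51.1 and 52.9 CPM in mock and 38.3 and 38.7 CPM in aversive libraries, and Gabrb1, whose exons overlap Gabra4 on the other strand, at 113, 44.6 and 62.9 against 18.5 and 280 CPM. DESeq2 gave an adjusted p for 9 of the 12 and called 1 of them lower, and edgeR called 0. Receptors for noradrenaline, dopamine, serotonin and acetylcholine had 18 of 32 members tested, 1 above and 7 below. Their median of -5.89 became -1.76 when genes without a count in the aversive libraries were set to the floor. Htr2c, a serotonin receptor that is abundant in choroid plexus, was at 1.04, 2.08 and 15.1 CPM in mock and 6.66 and 25.2 CPM in aversive libraries, so the groups overlapped.

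Voltage-gated channel genes had 3 of 30 tested above and 1 below, and their median of 1.22 was -3.43 without aversive 3. Kcna2, a potassium channel of axons, was at 43.4, 13.5 and 38.5 CPM in mock and 71.9 and 71.8 CPM in aversive libraries, while Kcna1 had 0 counts in aversive 1 and was at 54 CPM in aversive 3. Kinases of synaptic plasticity and the CREB pathway had 6 of 28 above and 1 below, with a median of 0.75 that stayed between 0.28 and 0.92 in all alternatives. Their most abundant members overlapped between the groups. Prkar1a, a regulatory subunit of protein kinase A, was at 595, 728 and 456 CPM in mock and 477 and 337 CPM in aversive libraries, and Ntrk2, the receptor of BDNF, at 849, 259 and 458 against 360 and 559 CPM.

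Immediate early genes, the family to which the tagging promoter belongs, were not higher as a group in the foot shock libraries. The study's methods do not give the time from foot shock to dissection for these mice. These levels, and those of the late and stress hormone genes below, thus cannot be placed in time after the shock. All 28 were tested, and 1 lay above every mock library and 4 below (against 11.4% and 24.7% of all genes). Neither tool called any, and DESeq2 gave an adjusted p for 25 of them. The median was -0.88, or -2.06 without aversive 1 and -0.50 without aversive 3. Over all tested genes the median was -1.54 without aversive 3. The summed CPM was 2595, 10913 and 9223 in mock and 7166 and 1743 in aversive libraries, so the lowest and highest values of the 5 came from different groups. The promoter of Fos is shown because it is the natural counterpart of the promoter that sets the tag. It is taken from RefSeq for GRCm38.p6, chr12:85473640-85473939 on the plus strand, from 250 bases before to 50 bases after the start of the gene, with the letters TGACG (the core of the CRE element, searched on both strands) and TATAAA (bound by TBP in many promoters, searched likewise) in capitals.

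Fos: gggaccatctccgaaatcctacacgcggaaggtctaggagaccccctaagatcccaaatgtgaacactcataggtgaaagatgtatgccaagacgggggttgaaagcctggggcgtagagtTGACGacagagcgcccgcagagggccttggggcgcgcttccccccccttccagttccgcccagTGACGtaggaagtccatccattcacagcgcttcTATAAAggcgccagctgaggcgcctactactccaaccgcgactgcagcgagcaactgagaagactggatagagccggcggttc

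TGACG began 129 and 66 bases before the start and TATAAA 33 bases before it. In the same windows, TGACG occurred in 16 of the 23 immediate early genes with an entry (69.6%) and in 23% of 27025 genes with an entry, and TATAAA in 5 of 23 (21.7%) and 15.7%. The full palindrome TGACGTCA was in 3 of 23 (13%) and 2.03%. These matches describe the letters and no binding.

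Fos itself (chr12:85473890-85477273) was at 455, 1646 and 1592 CPM in mock and 918 and 146 CPM in aversive libraries, a log2 fold change of -1.21 ± 0.91 (edgeR adjusted p = 0.645). Fosb was at 27, 65.6 and 83.5 CPM against 21.4 and 19.6 CPM, so it lay below in both aversive libraries. Egr1, another rapid transcription factor of active neurons, was at 205, 650 and 912 against 712 and 104 CPM. The reverse held for Arc, whose product acts at synapses and whose RNA is largely neuronal, with 25.8, 22.2 and 30.4 CPM in mock and 91.9 and 32.9 CPM in aversive libraries. Arc was the only one of the 28 above every mock library, with a log2 fold change of 1.25 ± 1.24 (edgeR adjusted p = 0.752). Npas4, which is specific to active neurons, was at 0 counts in 4 of the 5 compared libraries and at 0.207 CPM in mock 3. Dusp1, Jun and Junb, the other abundant members, were at 187 to 2193 CPM in mock and 227 to 961 CPM in aversive libraries. Exons of Dusp1, Jun and Junb overlap Ergic1, Junos and Prdx2 on the other strand.

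Genes that follow the early wave in active neurons had no member above every mock library. Of 18 activity-regulated late genes 16 were tested, 0 lay above and 9 below every mock library, and the median was -3.30, or -2.70 with genes without a count set to the floor. It was -7.28 without aversive 3, -4.95 without aversive 1 and -0.32 when at least 10 counts were required in every library. Bdnf, the neurotrophin, was at 2.95, 0.417 and 0.719 CPM in mock and 0 and 0.02 CPM in aversive libraries. Rasl11a, a small GTPase, was at 5.97, 37.5 and 12.2 against 0 and 0.361 CPM (DESeq2 adjusted p = 0.00258), and Rgs2, a regulator of G protein signals, at 25.8, 67.8 and 208 against 84.6 and 92.9 CPM. Ptgs2, cyclooxygenase 2, was at 307 CPM in mock 2 and 0.18 to 50.3 CPM elsewhere. DESeq2 called 3 of the 16 lower and edgeR 0, with 4 at an unadjusted p under 0.05.

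Genes of the stress hormone response, which corticosterone induces through the glucocorticoid receptor, had no common direction in the foot shock libraries. Of 20, 1 lay above and 4 below, with a median of -0.63 that was -1.37 without aversive 3. Fkbp5, the chaperone that dampens the receptor, was at 22.1, 20.7 and 13.3 CPM in mock and 0.15 and 21.4 CPM in aversive libraries, so it was nearly missing from aversive 1 alone. Mt1, a metallothionein, was at 982, 717 and 390 against 953 and 1743 CPM, Sgk1, a kinase, at 294, 459 and 481 against 409 and 112 CPM, and Tsc22d3, the glucocorticoid-induced leucine zipper, at 396, 495 and 184 against 202 and 168 CPM. DESeq2 called Map3k6 alone, picked here for that, at 1.59, 39.5 and 2.86 CPM in mock and 0 counts in both aversive libraries. Heat shock genes had 2 of 18 above and 3 below with a median of -0.45, and their sums of 2862 to 6182 CPM in mock and 3264 and 4703 CPM in aversive libraries overlapped. Cryab, a small heat shock protein of glia whose exons overlap Hspb2 on the other strand, was at 705, 838 and 412 CPM against 1483 and 1083 CPM. The heat shock and immediate early sums were both highest in mock 2, and aversive 1 exceeded aversive 3 in both. The part of heating and dissociation in either was not tested.

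Inflammatory genes varied between the libraries of each group. Chemokines and cytokines had 2 of 27 tested above and 2 below, and their median of 0.70 was -2.04 without aversive 1. Il1a, an early cytokine of microglia, was at 53.2, 205 and 161 CPM in mock and 814 and 33.2 CPM in aversive libraries, so the aversive pair held both extremes. Ccl4 was at 28.5, 228 and 235 against 654 and 71.8 CPM, and Ccl3 at 11.4, 163 and 103 against 292 and 104 CPM. Summed microglia markers were 10178 CPM in aversive 1 and 3662 CPM in aversive 3, and their part in these values was not tested. Interferon response genes had 1 of 24 above and 5 below, with a median of -0.44 that was -3.12 without aversive 1, 0.17 without aversive 3 and 0.28 without mock 2. Ddx58, which encodes the RNA sensor RIG-I and was picked after its values were seen, was at 9.44, 16 and 27.7 CPM in mock and 0.1 and 0.24 CPM in aversive libraries (DESeq2 adjusted p = 2.46e-07, edgeR unadjusted p = 0.00358). Ifi27 was at 64.5, 152 and 80.4 against 326 and 207 CPM. DESeq2 gave an adjusted p for 23 of the 24 and called 4 lower and 0 higher. Antigen presentation genes had 2 of 16 above and 3 below with a median of 0.15, which was -0.45 without aversive 1 and also negative without mock 1, and B2m, the common chain of MHC class I, was at 216, 1025 and 417 against 1426 and 536 CPM.

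Transcripts of the mitochondrial genome were the list with every tested member above the mock libraries. All 7 tested mitochondrial genes of 13 lay above every mock library, with a median log2 fold change of 1.24, between 0.83 and 1.63 in all alternatives. The other 6 mitochondrial genes had at most 63 counts in any of these libraries. The summed CPM was 29846, 30102 and 11983 in mock and 61162 and 45158 in aversive libraries. Cytochrome b, mt-Cytb, was at 9510, 10022 and 4439 CPM in mock and 20033 and 14654 CPM in aversive libraries, and the complex IV subunit mt-Co1 at 4349, 4243 and 2563 against 10651 and 6867 CPM. No member had an edgeR unadjusted p under 0.05, and DESeq2 called 0 of 7. These genes share one transcript unit per strand and one compartment, so their agreement in position is not that of 7 independent genes. Within the sets alike in Mbp share, the sum differed by 1.03 on the log2 scale for aversive 1 over mock 1 and 2 and by 1.91 for aversive 3 over mock 3. The direction of both was fixed beforehand, since the sums of the groups did not overlap. In other lists the same 2 differences went apart, as for microglia markers (1.82 and -1.83) and immediate early genes (0.09 and -2.40).

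Of the 10 nuclear long noncoding RNAs, 4 lay above every mock library, 6 overlapped and 0 lay below, with a median of 2.62, which was 0.42 without aversive 3. Malat1, the abundant RNA of nuclear speckles, was at 555, 1263 and 978 CPM in mock and 2368 and 8525 CPM in aversive libraries, a log2 fold change of 2.55 ± 0.67 (edgeR adjusted p = 0.472, DESeq2 adjusted p = 0.0402), and edgeR called it only without the filter on low counts. Meg3, an imprinted RNA of neurons, was at 6.53, 2.66 and 35.4 CPM against 7.91 and 368 CPM, and Neat1, the scaffold of paraspeckles, at 54.9, 59.5 and 119 against 97 and 365 CPM. Aversive 3 was the highest of the 5 libraries in these 3 RNAs, as it was for Ddx17, Son and Lsm7 above.

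**Figure D5:**
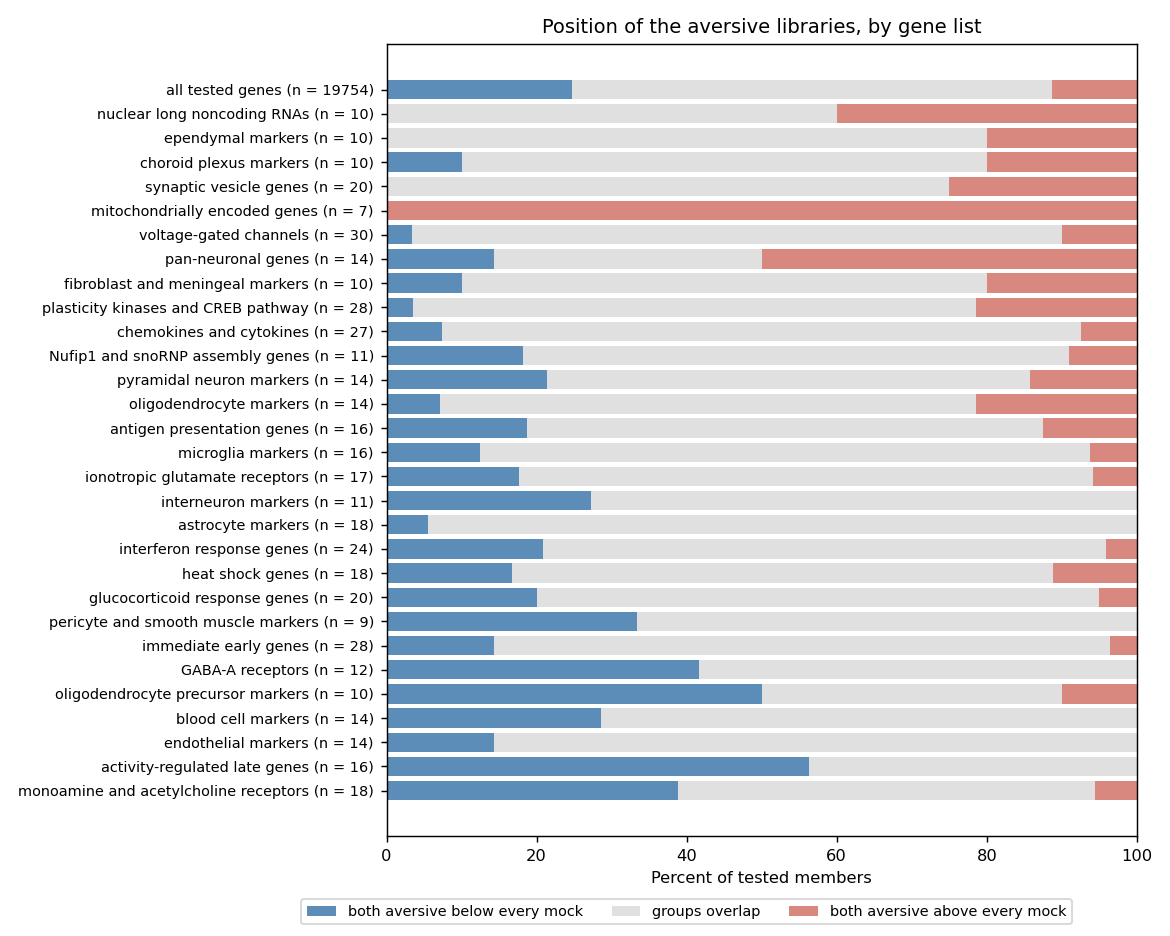
For each gene list, ordered by median log2 fold change, the percent of tested members with both aversive libraries below every mock library (blue), above every mock library (red) or overlapping (grey). All tested genes, at 24.7% below and 11.4% above, are the top bar; the mitochondrial list is at 7 of 7 above, and the activity-regulated late genes at 9 of 16 below.

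Nufip1, which with Nop58, Nop56 and partner proteins assembles the box C/D particles that guide the methylation of ribosomal RNA, was at 7.17, 15.8 and 12.4 CPM in mock and 0.2 and 0.341 CPM in aversive libraries, from 4 and 17 counts. The log2 fold change was -5.42 ± 1.21 (SE; edgeR adjusted p = 0.465, unadjusted p = 0.000913), and DESeq2 gave an adjusted p of 4.61e-09. The ratio of the mock mean to the pooled aversive level was 39.3, with a Poisson 95% interval of 25.7 to 63.5. Of its 10 partners in the list, Nop56 also lay below every mock library. Of all 11, 1 lay above and 2 below every mock library, and the median of 0.25 was -0.60 without aversive 1 and -0.15 with library size alone. Nop58 was at 11.9, 21.5 and 19.3 CPM in mock and 74 and 10.1 CPM in aversive libraries, and Ruvbl2 at 26.1, 27.4 and 32 against 55.3 and 12.6 CPM. Nop56 was at 33.7, 61.3 and 38.1 against 26.8 and 5.47 CPM, and its exons, as annotated over all transcripts, overlap snoRNA genes.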

How the data were processed

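Hippocampal RNA was compared between 2 aversive and 3 mock libraries, grouped by their titles. Reads, of which 40 bp were used, were aligned by the authors with STAR to mm10. They counted reads per Ensembl gene without strand with featureCounts and deposited raw counts for 53379 genes per library. Tool versions were not given in the sources used here. Gene positions came from GENCODE M21 (GRCm38), which matched 53274 identifiers, 159 of them with a shared symbol.

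The test across genes used edgeR 4.0.16 in R 4.3.3 (TMM, filterByExpr, quasi-likelihood F test, 4 groups over all 10 libraries, with a common coefficient of variation of 122%), with two-sided p-values adjusted by Benjamini-Hochberg. Standard errors came from the F statistics. CPM values are TMM-normalized. DESeq2 1.42.0, other scalings, filters and sets of libraries, the replicate number as a block and leaving out each library were alternatives. Steps were tested on simulated data. Exact Poisson intervals are at 95%.

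Named genes were the 12 protein-coding genes with the smallest p per direction, up to 4 per list of highest mean CPM, and Fos, Fosb, Arc, Egr1, Npas4, Bdnf, Nufip1, Slc1a2, Fkbp5, Ttr, Mbp, Cx3cr1, Slc17a7 and Gad1. Some genes that this rule takes in are not reported here. Others were chosen after their values were seen. The 29 lists and the comparison were chosen with earlier results of these data known.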

Additional observations from a re-analysis of the deposited data

How the results depend on the processing

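At an adjusted p under 0.05, edgeR called 0 genes under TMM, DESeq2's size factors, library size alone, a minimum of 10 counts in every library, the 7 libraries of one kit, the 5 compared libraries, and without any one library (range 0 to 0). Without a filter on low counts it called 10, namely Spp1, Ttr, mt-Rnr1, mt-Rnr2, Malat1 and CT010467.1 higher and Acvrl1, Ntn4, Lcn2 and Apold1 lower. DESeq2 called 1467 genes on 10 libraries, 1619 on 7 and 2878 on 5. At an adjusted p under 1e-05 with a more than 4-fold difference, edgeR called 1 gene without the filter and 0 otherwise, and DESeq2 called 258, 110 and 258. The cause of the difference between the tools was not tested. With the replicate number as a block, edgeR called 0 genes on 10 libraries and 0 on 5 (unadjusted p under 0.05 for 56 higher and 975 lower, and for 127 and 1130). The numbers 1 and 3 are shared by mock and aversive, but no source says that they mark shared animals or days, so they were not treated as pairs. The deviations of same-numbered libraries correlated at 0.032 and 0.164, which decides nothing, since the deviations of 2 aversive libraries are mirror images.

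Leaving out a library gave 2548 to 6609 genes with both groups apart and aversive higher, and 5267 to 9031 with aversive lower. These counts can only stay or rise when a library is left out. The count of 154 genes at 10 CPM in mock and under 1 CPM in aversive libraries became 35 with 20 CPM, 389 with 5 CPM and 101 with 0.5 CPM in aversive libraries; these alternatives, and the counts of genes apart, were chosen after the data were seen. For the 24 genes with the smallest p-values, 309 alternative values kept direction and side of the threshold and 60 passed it with the same direction. Of the list medians in the alternatives, 416 kept the sign of the main run and 44 had the opposite sign. A kept sign does not mean a similar size. Of the 29 lists, 14 kept their sign in every alternative. With 2 aversive libraries, the precision of every value here is limited by their number rather than by depth alone.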
